A study of Homo sapiens with 24 samples.

Results

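The members described here were the expressed long noncoding and antisense RNAs of CD18/HPAF, an established human pancreatic ductal adenocarcinoma cell line. They were chosen by name and by their own values: rows with a single gene name of the form LINC followed by a number, a name ending in -AS or -IT, a microRNA host name (MIR...HG, other than MIR210HG), or one of MALAT1, NEAT1, H19, TUG1, PVT1, CRNDE and OIP5-AS1, with at least 1 FPKM in either group. FPKM count sequenced fragments relative to transcript length and library size, so that levels can be set side by side between genes of different length. Of 30276 rows in the deposited table, 2077 had such a name and 354 of these, with 351 distinct names, reached the threshold. The other named rows were listed at 0 in both groups (1025 rows) or stayed above 0 and under 1 FPKM (698 rows). A further 35 rows joined such a name with another gene, among them the row of H19, and were not members.

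RNA was sequenced from untreated CD18/HPAF cells (12 samples) and from cells given 1 µM ISOX for 48 h (12 samples). ISOX, also sold as CAY10603, is a small molecule that inhibits histone deacetylases, HDAC6 above all. All samples came from 1 cell line and carried no other agent by their labels, and their titles hold a first number with 3 values and a second number with 4 values, whose meanings the labels do not give. The table holds 1 pooled FPKM value for each gene in each group, so that no spread between samples, no n and no test stand behind any ratio below, and a difference between the groups cannot be set against replicate error. The depth of the samples is unknown. The cells carried the markers of the labelled type: all 8 ductal epithelial markers lay between 82.3 and 3325 FPKM, the highest being KRT19, while PRSS1 and CPA1 (acinar), CD3E (immune), FAP (stromal) and CDH5 (endothelial) were listed at 0 in both groups. The summed FPKM of the other lists was 3.14 untreated and 4.22 with ISOX for 5 stromal markers, 20.1 and 26.3 for 4 immune markers, nearly all of it CD68, 0.0953 and 0.103 for 2 endothelial and 0.113 and 0.314 for 3 acinar markers, and their part in the results below was not tested.

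Long noncoding RNAs are transcripts without a long reading frame that act in the nucleus or the cytoplasm, as scaffolds, as decoys for proteins and microRNAs, or through their own transcription. Names beginning with LINC were given to RNAs between genes, -AS to RNAs from the strand opposite a named gene, -IT to RNAs from an intron of a named gene, and MIR...HG to transcripts from which microRNAs are cut. Histone deacetylases remove acetyl groups from histones and other proteins, and their inhibition is known to alter transcription of coding and noncoding genes alike.

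Most of these RNAs were present at low levels and lay within 1.5-fold between the groups, though less often than all rows did. Among the 354 members, 245 stayed under 5 FPKM in both groups and 52 (14.7%) exceeded 10 FPKM in either group, against 54.7% of the 12216 rows that reached 1 FPKM. The summed FPKM of the members was 2119 in untreated and 2761 in ISOX-treated cells, which was 0.318% and 0.316% of the sum over all rows. A ratio could be formed for 350 members, of which 149 lay within 1.2-fold and 251 within 1.5-fold of equality. At a fold of 1.5, 24.0% of members were higher and 4.29% lower, beside 13.0% and 2.56% of all rows. The values were higher with ISOX in 250 members and lower in 104. A positive log2 ratio was found for 246 of the 350 members with a ratio. This was a smaller share than that of all rows, 9339 of 12154 (76.8%). The median log2 ratio (ISOX over untreated) was 0.19 over the members and 0.21 over all rows that reached 1 FPKM, so that the whole table was shifted upwards, and 171 members (48.9%) lay above the median of all rows.

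At least 2-fold higher values with ISOX were found for 37 of 350 members (10.6%), beside 3.39% of all 12154 rows with a ratio. At least 2-fold lower values were found for 3 members (0.857%), beside 0.79% of all rows. Of the 37, 18 reached 1 FPKM only with ISOX, and such members had to differ to be chosen. Among the 291 members with at least 1 FPKM in both groups, 19 (6.53%) were at least 2-fold higher, beside 2.46% of all such rows, and 0 were at least 2-fold lower, beside 0.412%. The share also depended on level. It was 19 of 136 members with a mean under 2 FPKM (14.0%, beside 8.54% of all rows at that level), 14 of 168 members between 2 and 10 FPKM (8.33%, beside 2.86%) and 4 of 46 members over 10 FPKM (8.70%, beside 2.62%). In each of these 3 ranges the share of members was above that of all rows. The 4 higher members over 10 FPKM were LINC00152, LINC00998, TOPORS-AS1 and RAB30-AS1. RefSeq now lists LINC00998 and TOPORS-AS1 as coding, and the value of LINC00152 is uncertain because of a close paralog. After 1 FPKM was added to both values, 15 members were at least 2-fold higher and 0 lower, and with each log2 ratio taken relative to the median of all rows 21 were higher and 8 lower.

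**Figure D1:**
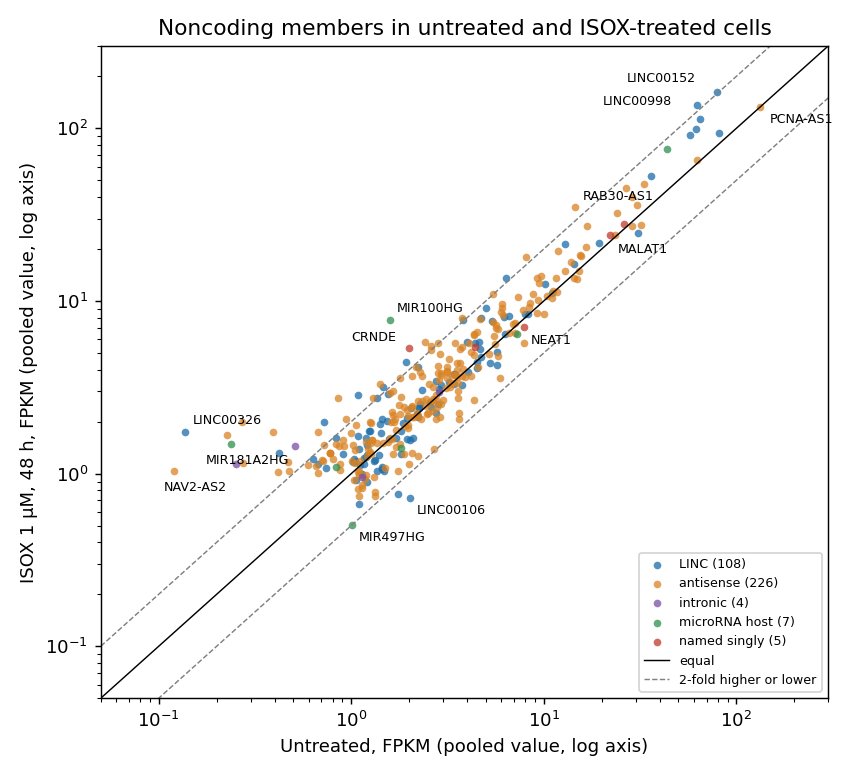
Each point is 1 of the 350 members with a ratio, with its pooled FPKM in untreated cells on the horizontal and in ISOX-treated cells on the vertical log axis; colours give the name class, the solid line equality and the dashed lines 2-fold differences. The 37 members on or above the upper dashed line spread over the whole range of levels, and the 3 on or below the lower one lie near 1 to 2 FPKM in untreated cells; the 4 members listed at 0 in untreated cells are not drawn.

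**Figure D2:**
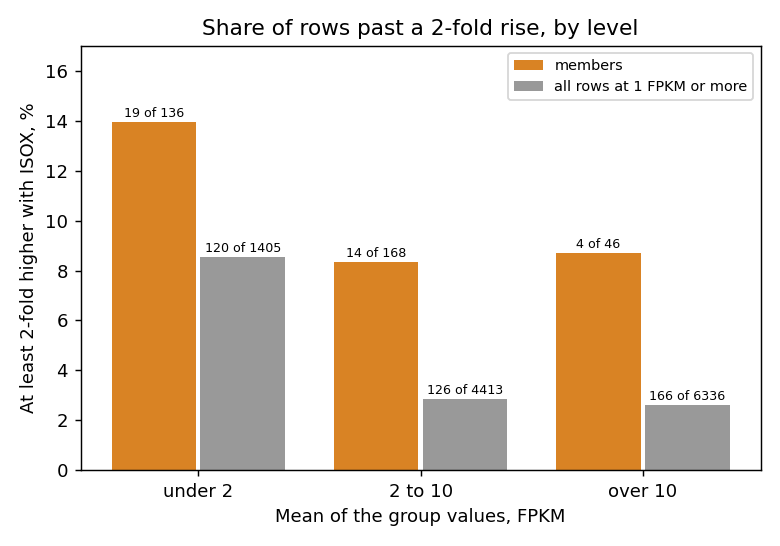
Bars show the percentage of rows with at least 2-fold higher FPKM with ISOX, for members and for all rows at 1 FPKM or more, in 3 ranges of the mean of the pooled values; the counts stand above the bars. Members lie at 14.0%, 8.33% and 8.70%, and all rows at 8.54%, 2.86% and 2.62%. The higher members over 10 FPKM include LINC00998 and TOPORS-AS1, which RefSeq now lists as coding.

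With ISOX only, 44 members reached 1 FPKM (12.4%, against 2.90% of all rows), and 19 reached it in untreated cells only (5.37%, against 1.74% of all rows), so that members, most of them at low levels, crossed the threshold more often than all rows in both directions. Just inside the threshold were LINC01337 at 1.00 FPKM, MIR497HG at 1.01 FPKM and PAN3-AS1 at 1.01 FPKM. Among the rows just outside were NR2F2-AS1 at 0.990 FPKM and LINC00999 at 0.978 FPKM. Listed at 0 in untreated cells were HOXC-AS3 (1.62 FPKM with ISOX), CATIP-AS1 (1.15 FPKM), LINC01337 (1.00 FPKM) and CDC37L1-AS1 (2.94 FPKM), for which no ratio was formed.

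Of the 12 members at the highest levels, 7 had a LINC name, of which 3 are now listed as coding, and 9 had a log2 ratio above the median of all rows. LINC00152, also called CYTOR, a cytoplasmic RNA known from several carcinomas, had the highest value of all members (chr2:87455455-87521511, hg38), with 79.7 FPKM untreated and 162 FPKM with ISOX, a log2 ratio of 1.02. Its paralog MIR4435-2HG, which arose by duplication on the same chromosome (chr2:111367011-111495115) and whose mouse counterpart acts in the survival of myeloid cells, had 43.5 and 76.4 FPKM, a log2 ratio of 0.81. The copies are close in sequence. Of the bases in 38 annotated LINC00152 transcripts, 50.4% lay in stretches of at least 75 bases with at least 97% identity to a MIR4435-2HG transcript, and 10 of the 38 transcripts matched over at least 90% of their length. Reads of 75 bases, the length used, cannot always be assigned to one copy, and the division of FPKM between LINC00152 and MIR4435-2HG is therefore uncertain. The RefSeq promoter windows (250 bases before to 50 after the annotated start, GRCh38.p14) are shown because they let the likeness be seen. Capitals mark the longest identical run, of 241 bases, in CYTOR (chr2:87455177-87455476, plus strand) and MIR4435-2HG (chr2:111495112-111495411, minus strand).
CYTOR: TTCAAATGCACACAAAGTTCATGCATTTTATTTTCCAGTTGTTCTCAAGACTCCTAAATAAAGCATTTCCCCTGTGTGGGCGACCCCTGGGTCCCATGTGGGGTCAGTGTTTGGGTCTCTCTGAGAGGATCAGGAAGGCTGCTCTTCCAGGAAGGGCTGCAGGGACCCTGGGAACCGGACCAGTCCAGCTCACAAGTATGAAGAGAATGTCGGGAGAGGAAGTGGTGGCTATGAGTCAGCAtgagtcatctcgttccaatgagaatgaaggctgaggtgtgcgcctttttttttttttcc
MIR4435-2HG: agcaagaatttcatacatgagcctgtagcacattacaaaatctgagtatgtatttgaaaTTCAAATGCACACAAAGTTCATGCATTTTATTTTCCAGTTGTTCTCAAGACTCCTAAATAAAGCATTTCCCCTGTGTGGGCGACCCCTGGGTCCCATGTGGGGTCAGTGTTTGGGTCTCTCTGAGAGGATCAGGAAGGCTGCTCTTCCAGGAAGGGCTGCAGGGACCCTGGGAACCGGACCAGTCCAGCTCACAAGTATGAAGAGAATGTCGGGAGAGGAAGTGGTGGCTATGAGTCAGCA

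Several of the other abundant rows carry an older noncoding name, while RefSeq now lists the gene as coding for a short protein. LINC00998, now SMIM30, a small integral membrane protein, had 62.1 FPKM untreated and 136 FPKM with ISOX, a log2 ratio of 1.13. LINC00493, now SMIM26, had 64.7 and 113 FPKM (log2 ratio 0.80). LINC01420, now NBDY, a microprotein that binds the mRNA decapping machinery, had 57.5 and 91.3 FPKM (0.67). TOPORS-AS1, now SMIM27, had 8.07 and 17.9 FPKM (1.15). In all, 14 members matched a gene listed as coding in RefSeq, among them TUG1 under its own name. MIR4697HG and TNRC6C-AS1 matched only as synonyms of IGSF9B and TMC6. The 14 had a median log2 ratio of 0.26, and 2 of them (14.3%) were at least 2-fold higher, beside 3.39% of all rows. Their median highest level of 14.1 FPKM stood above the 2.75 FPKM of the 338 members listed as noncoding or pseudogene. LINC00998, LINC00493, LINC01420 and TOPORS-AS1 are therefore members by name only.

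Among the other leading members, LINC01057 (RefSeq SLC44A3-AS1) had 61.9 FPKM untreated and 99.0 FPKM with ISOX, a log2 ratio of 0.68. LINC01589 had 35.8 and 53.3 FPKM (0.57). HIF1A-AS2, named after the gene of the hypoxia-inducible factor 1 alpha, had 33.3 and 47.7 FPKM (0.52), and UNC5B-AS1, named after a netrin receptor gene, had 26.7 and 44.8 FPKM (0.75). These 4 were all above the median shift of 0.21 but under 2-fold. LINC00657, better known as NORAD, a cytoplasmic RNA that binds PUMILIO proteins and guards chromosome stability, had 81.2 and 93.7 FPKM (0.21), which was the median shift of the table. PCNA-AS1, from the strand opposite the gene of the DNA sliding clamp PCNA, had 133 and 134 FPKM (0.00), and PCNA itself 125 and 128 FPKM (0.03). No exon overlap could be computed for PCNA-AS1, and the library kit is not stated to keep the strand. Whether the values of these antisense members rest on reads of the named genes was not tested. FGD5-AS1 had 62.4 and 65.6 FPKM (0.07).

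**Figure D3:**
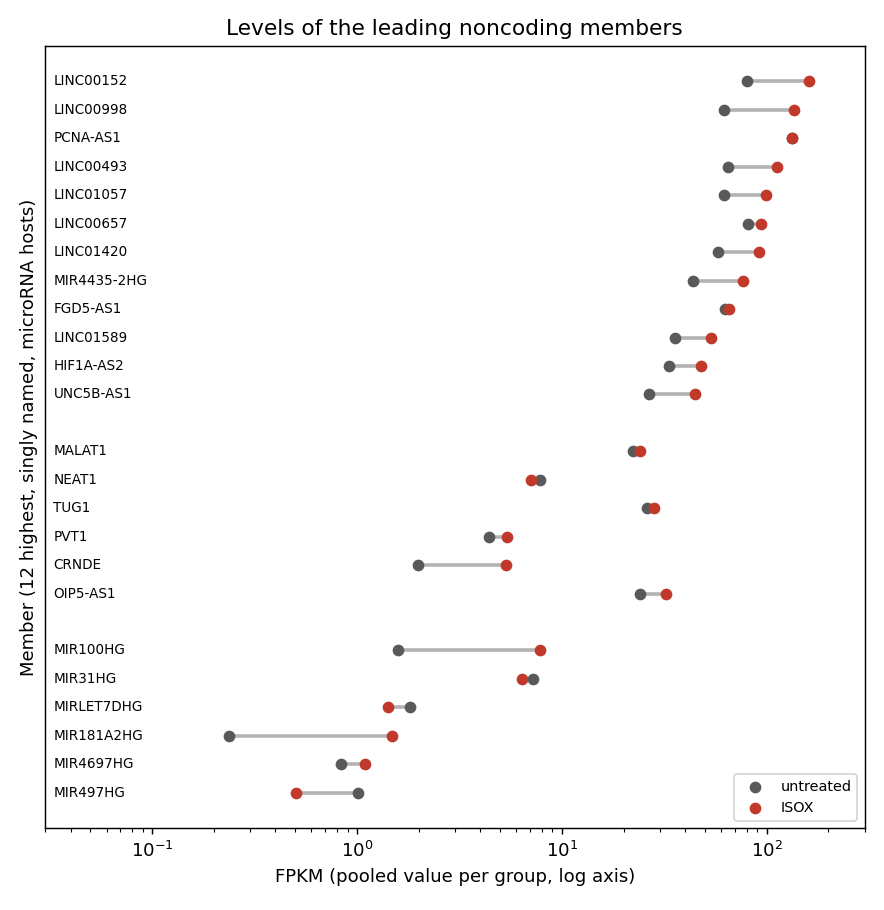
Pooled FPKM on a log axis in untreated (grey) and ISOX-treated (red) cells for 24 members: the 12 with the highest FPKM, the singly named RNAs, and the remaining microRNA hosts. MIR100HG, MIR181A2HG and CRNDE show the widest distances towards higher values with ISOX, MIR497HG the widest towards lower, and MALAT1, TUG1, NEAT1 and PCNA-AS1 hardly differ.

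The best-known nuclear RNAs differed little. MALAT1, a nuclear speckle RNA (chr11:65497762-65506737), had 22.1 FPKM untreated and 24.0 FPKM with ISOX, a log2 ratio of 0.12. NEAT1, the scaffold of paraspeckles and its neighbour in the genome (chr11:65422798-65445538), had 7.85 and 7.04 FPKM (-0.16). Both were below the median of all rows, by 0.10 and 0.37 on the log2 scale. Of the 16 listed paraspeckle proteins, 15 were expressed, and their median log2 ratio was 0.17. None was 2-fold apart, beside 3.39% of all rows at least 2-fold higher and 0.79% lower. The largest differences among them were those of HNRNPH3 (58.2 and 84.7 FPKM, 0.54), TAF15 (56.9 and 71.5 FPKM, 0.33), NONO (93.5 and 112 FPKM, 0.27) and DAZAP1 (69.3 and 83.0 FPKM, 0.26), while SFPQ had 77.4 and 69.6 FPKM (-0.15). FRMD8, a coding gene near the locus, had 14.5 and 13.0 FPKM (-0.16).

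TUG1, first described as a taurine-upregulated RNA of the retina in rodents and now listed as coding in RefSeq, had 26.2 FPKM untreated and 28.1 FPKM with ISOX (0.10), and its neighbour MORC2 had 8.30 and 9.69 FPKM (0.22). PVT1, the RNA next to MYC, had 4.42 and 5.41 FPKM (0.29), and MYC had 35.4 and 49.7 FPKM (0.49). OIP5-AS1, also known as Cyrano from zebrafish, had 24.0 and 32.2 FPKM (0.43), while OIP5, of which it is the antisense RNA, had 20.9 and 26.4 FPKM (0.34) and the neighbour NUSAP1, a spindle protein gene, had 47.9 and 63.4 FPKM (0.41). Against the median of all rows, TUG1 lay at -0.11, PVT1 at 0.08 and OIP5-AS1 at 0.21 on the log2 scale. H19 was not measured in a row of its own.

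CRNDE was the exception among the singly named RNAs. This RNA, named for its differential expression in colorectal neoplasia, lies at chr16:54918863-54929189 on the minus strand, next to the homeobox gene IRX5. It had 1.996 FPKM untreated and 5.34 FPKM with ISOX, a 2.67-fold difference (log2 ratio 1.42, and 1.21 above the median of all rows). IRX5 itself had 0.225 and 0.152 FPKM and IRX3 was listed at 0 in both groups. Polycomb repressive complex 2, a histone methyltransferase to which CRNDE has been linked, had 11 listed genes with a median log2 ratio of 0.19. They ran from JARID2 (2.63 and 2.56 FPKM, -0.04) to EED (23.6 and 32.4 FPKM, 0.46). No gene of the 11 was past 2-fold, beside 3.39% of all rows at least 2-fold higher and 0.79% lower.

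The microRNA hosts differed widely among themselves. MIR100HG had 1.58 FPKM untreated and 7.81 FPKM with ISOX, a 4.94-fold difference (log2 ratio 2.30). MIR181A2HG had 0.238 and 1.49 FPKM (2.64), and had reached the threshold only with ISOX. MIR497HG had 1.01 and 0.504 FPKM (-1.001), right at the threshold. Of the 7 hosts, 2 were thus at least 2-fold higher and 1 at least 2-fold lower, beside 3.39% and 0.79% of all rows. The median log2 ratio of the hosts was 0.38. MIR4697HG had 0.837 and 1.09 FPKM (0.38), MIR31HG 7.25 and 6.42 FPKM (-0.17), and MIRLET7DHG 1.81 and 1.41 FPKM (-0.36). The span of MIRLET7DHG, now LINC02603 in RefSeq, held let-7d on the opposite strand, so that this row is a host by name only. No RefSeq microRNA lay within the row span of MIR4435-2HG, which is also among the 7 hosts. MIR31HG and MIRLET7DHG shared 40.7% and 85.7% of their exonic bases with other genes, MIR497HG 49.2%, and MIR100HG 1.17%.

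The host transcripts, not the microRNAs, were measured, and what follows shows which microRNAs lie in the hosts past 2-fold. Mature sequences from RefSeq (GRCh38.p14) are given 5′ to 3′ with the seed, bases 2 to 8, which pairs with target mRNAs, in capitals. The span of MIR100HG on chromosome 11 held miR-100, miR-10526, let-7a-2 and miR-125b-1, that of MIR181A2HG on chromosome 9 held miR-181a-2 and miR-181b-2, and that of MIR497HG on chromosome 17 held miR-195 and miR-497. All of them lay on the host's strand. let-7a and the miR-125b and miR-181 microRNAs also come from other loci. miR-181a and miR-181b shared the seed ACAUUCA and miR-195 and miR-497 the seed AGCAGCA, whereas the sequences shown for MIR100HG had different seeds. miR-10526 is named only.
hsa-miR-100-5p: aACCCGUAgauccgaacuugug
hsa-let-7a-5p: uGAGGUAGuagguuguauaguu
hsa-miR-125b-5p: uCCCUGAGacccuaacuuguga
hsa-miR-181a-5p: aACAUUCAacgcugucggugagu
hsa-miR-181b-5p: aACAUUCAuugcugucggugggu
hsa-miR-195-5p: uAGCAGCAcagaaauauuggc
hsa-miR-497-5p: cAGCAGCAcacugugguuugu

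The genes that cut and load microRNAs had no member past 2-fold, which is close to the share of all rows (3.39% higher and 0.79% lower). Of 19 listed, 15 were expressed, 0 were 2-fold apart, and their median log2 ratio was 0.10. AGO4, an Argonaute protein gene, had 4.54 and 2.84 FPKM (-0.68), XPO5, the exporter of precursor microRNAs, 10.6 and 14.1 FPKM (0.41), PRKRA 17.2 and 21.6 FPKM (0.32), and DGCR8, the partner of DROSHA, 6.98 and 5.72 FPKM (-0.29). DROSHA itself had 10.1 and 10.8 FPKM (0.10) and DICER1 7.34 and 7.62 FPKM (0.05). The nuclear RNA exosome, which degrades short-lived noncoding RNAs, had a median log2 ratio of 0.43 over its 19 expressed genes. It had 0 past 2-fold, beside the same shares of all rows. All 19 ratios were positive, as were those of 76.8% of all rows, and 12 of the 19 lay above the median of all rows and 7 below it. The largest were those of EXOSC8 (25.4 and 43.9 FPKM, 0.79), C1D (21.8 and 37.2 FPKM, 0.77), ZCCHC7 (4.93 and 8.23 FPKM, 0.74) and EXOSC1 (19.2 and 30.3 FPKM, 0.66).

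Among the remaining LINC members, LINC01468 (RefSeq LNCAROD) had 6.33 FPKM untreated and 13.5 FPKM with ISOX (log2 ratio 1.09), and LINC00239 had 3.82 and 7.80 FPKM (1.03). LINC01060 had 1.92 and 4.44 FPKM (1.21), LINC00428 1.47 and 3.16 FPKM (1.11), LINC01612 1.09 and 2.85 FPKM (1.39) and LINC01089, which shares 51.3% of its exonic bases with other genes, 1.36 and 2.74 FPKM (1.01). These 6 reached 1 FPKM in both groups. The highest ratio of all members was that of LINC00326 (chr6:133088080-133106578), with 0.137 FPKM untreated and 1.75 FPKM with ISOX (3.67, and 1.27 after 1 FPKM was added to both values). LINC00944 had 0.723 and 1.99 FPKM (1.46) and LINC00662 0.419 and 1.31 FPKM (1.65). The lowest ratios of all members were also of LINC RNAs, LINC00106 with 2.01 and 0.720 FPKM (-1.48) and LINC00342 with 1.76 and 0.761 FPKM (-1.21), and neither held 1 FPKM with ISOX. Over all 109 LINC members the median log2 ratio was 0.14. Of 108 with a ratio, 11 (10.2%) were at least 2-fold higher and 2 at least 2-fold lower, beside 3.39% and 0.79% of all rows.

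The 229 antisense members had a median log2 ratio of 0.23. Of 226 with a ratio, 21 (9.29%) were at least 2-fold higher and 0 at least 2-fold lower, beside 3.39% and 0.79% of all rows. The most abundant of the 21 was RAB30-AS1 (RefSeq RAB30-DT, chr11:83072066-83073712), which starts 143 bases from the start of RAB30, a small GTPase gene of the Golgi, on the opposite strand. It had 14.5 FPKM untreated and 35.0 FPKM with ISOX (1.27), while RAB30 had 0.748 and 0.735 FPKM (-0.03). DLGAP1-AS2 had 5.43 and 11.0 FPKM (1.01) while DLGAP1, a synaptic scaffold gene, stayed at 0.0604 and 0.0922 FPKM. NR2F1-AS1 had 3.76 and 8.02 FPKM (1.09) and NR2F1, an orphan nuclear receptor gene, 4.54 and 6.78 FPKM (0.58). PRR34-AS1 had 2.81 and 5.71 FPKM (1.02). UXT-AS1 had 2.60 and 5.46 FPKM (1.07) beside 139 and 166 FPKM (0.26) for UXT, a prefoldin-like protein gene, and RALY-AS1 had 1.30 and 2.75 FPKM (1.08) beside 24.7 and 27.8 FPKM (0.17) for RALY, an RNA-binding protein gene.

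A further 12 of the antisense members at least 2-fold higher reached 1 FPKM only with ISOX, out of 31 antisense members that did so. Since these were members only through their higher value with ISOX, the values of the named genes are given beside them as a description. LCMT1-AS1 had 0.227 FPKM untreated and 1.68 FPKM with ISOX (2.88), and LCMT1, which methylates protein phosphatase 2A, had 12.8 and 18.5 FPKM (0.53). IBA57-AS1 had 0.395 and 1.73 FPKM (2.13), and IBA57, an iron-sulfur cluster assembly gene, 1.03 and 1.09 FPKM (0.08). IDH1-AS1 had 0.852 and 2.73 FPKM (1.68), and IDH1, the cytosolic isocitrate dehydrogenase gene, 80.2 and 95.0 FPKM (0.24). RTCA-AS1, with 68.0% of its exonic bases over the opposite strand, had 0.276 and 1.16 FPKM (2.07), and RTCA, an RNA cyclase gene, 15.4 and 21.3 FPKM (0.47). TPT1-AS1 had 0.937 and 2.08 FPKM (1.15), and TPT1, the gene of translationally controlled tumor protein, 236 and 357 FPKM (0.60). GPC5-AS1 had 0.271 and 1.99 FPKM (2.87) with GPC5 listed at 0 in both groups. The remaining ones, apart from NAV2-AS2, which had a gene past 2-fold, were GLIS2-AS1 (log2 ratio 1.38, against 0.08 for GLIS2), TNKS2-AS1 (1.31, against 0.27 for the tankyrase gene TNKS2), CA3-AS1 (1.28), FAM222A-AS1 (1.13) and ENTPD3-AS1 (1.01), and the genes CA3, FAM222A (0.527 and 0.124 FPKM) and ENTPD3 did not reach 1 FPKM. Of the 4 intronic members, FTO-IT1 had 0.254 and 1.14 FPKM (2.17) and ALMS1-IT1 0.513 and 1.45 FPKM (1.497), against 0.30 for FTO and 0.05 for ALMS1, and CRHR1-IT1 and NPTN-IT1 had log2 ratios of 0.07 and -0.25.

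In 3 pairs both the member and the gene in its name were at least 2-fold higher. TM4SF1-AS1 had 2.42 FPKM untreated and 5.80 FPKM with ISOX (1.26), and TM4SF1, a tetraspanin-like surface protein gene of many carcinomas, had 336 and 1016 FPKM (1.60). FUT8-AS1 had 1.42 and 3.32 FPKM (1.23), and FUT8, the core fucosyltransferase gene, 16.7 and 42.3 FPKM (1.34). NAV2-AS2 had 0.121 and 1.04 FPKM (3.10), and NAV2, a neuron navigator gene, 0.426 and 3.60 FPKM (3.08). Of their exonic bases, 10.6% in TM4SF1-AS1, 54.2% in FUT8-AS1 and 65.7% in NAV2-AS2 lay over exons of the opposite strand. These exons need not all belong to the named gene. The library kit is not stated to keep the strand, so that reads of an antisense RNA and of an overlapping gene cannot be told apart where they share bases. TM4SF1 and TM4SF1-AS1 start 87 bases apart and their promoter windows share 228 bases. The window of TM4SF1-AS1 (RefSeq, GRCh38.p14, chr3:149377528-149377827, plus strand) is shown as the start region of a pair that was higher on both sides, with CG dinucleotides in capitals.
TM4SF1-AS1: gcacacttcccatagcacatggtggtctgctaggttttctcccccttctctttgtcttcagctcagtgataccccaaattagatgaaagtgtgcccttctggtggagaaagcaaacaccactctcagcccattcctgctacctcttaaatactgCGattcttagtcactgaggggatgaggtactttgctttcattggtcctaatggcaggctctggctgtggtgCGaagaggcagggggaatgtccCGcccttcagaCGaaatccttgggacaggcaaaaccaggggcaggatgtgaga

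Over all pairs, the member and the gene in its name were only loosely related. Of 233 members named after a gene, 220 had a row for that gene and in 186 pairs both had a ratio and reached 1 FPKM. The named gene stood at the higher level in both groups in 160 pairs and the member in 21. The median log2 ratio was 0.20 for the members and 0.20 for the genes, the median difference (member minus gene) was 0.02, and the member had the higher ratio in 99 of 186 pairs. Of 15 members at least 2-fold higher in these pairs, 11 had a gene within 1.5-fold, and of the 5 of these 15 with at least 1 FPKM in both groups, 3 had one. Most rows lay within that range, since 13.0% of all rows were at least 1.5-fold higher and 2.56% at least 1.5-fold lower. All 3 named genes that were at least 2-fold higher in these pairs had a member at least 2-fold higher. Across the 186 pairs Pearson's r was 0.43 and Spearman's rho 0.31, given as descriptions because both values of a pair come from the same pooled samples and may share reads. The rho was 0.34 in 133 pairs whose member shared exonic bases with any gene on the opposite strand, and 0.34 in 47 pairs without. The gene that shared them was not always the one in the name, so overlap within a pair was not measured. PYCARD-AS1, with 90.5% of its exonic bases over the opposite strand, had 3.62 and 2.26 FPKM (-0.68), and PYCARD, the inflammasome adaptor gene, 19.1 and 11.8 FPKM (-0.69). CERS6-AS1, at 69.7%, had a log2 ratio of -0.03, the same as CERS6. EML2-AS1, at 95.0%, had 0.25 against 0.87 for EML2, and RBM5-AS1, at 72.7%, had -0.71 against -0.04 for RBM5. These are examples from the 23 pairs at 50% or more, some with like and some with unlike ratios. The part of shared reads in them was not tested. MYLK-AS1 stayed at 2.11 and 2.14 FPKM (0.02) while MYLK, the myosin light chain kinase gene, had 6.72 and 1.98 FPKM (-1.77).

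**Figure D4:**
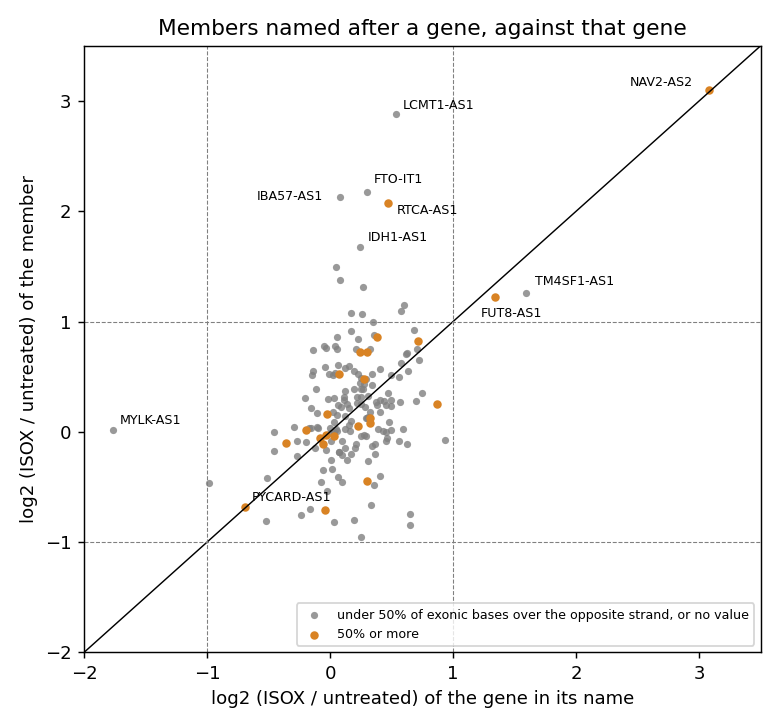
Each point is 1 of 186 pairs, with the log2 ratio (ISOX over untreated) of the gene in the member's name on the horizontal and of the member on the vertical axis; orange marks the 23 pairs in which at least 50% of the member's exonic bases lie over the opposite strand, and dashed lines mark 2-fold. NAV2-AS2, FUT8-AS1 and TM4SF1-AS1 lie past 2-fold on both axes, LCMT1-AS1, FTO-IT1, IBA57-AS1, RTCA-AS1 and IDH1-AS1 on the vertical axis only, and MYLK-AS1 far to the left.

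Exon overlap also moved with the size of the ratio. By GENCODE 29, which matched 342 members, 120 members shared no exonic base with another gene, and they had a median log2 ratio of 0.32 with 19 of 118 at least 2-fold higher (16.1%). The 146 members that shared under 25% had a median of 0.18 and 13 of 145 at least 2-fold higher (8.97%), and the 76 that shared 25% or more had a median of 0.08 and 4 of 75 (5.33%). Over all rows with a ratio, 3.39% were at least 2-fold higher. The counts include members that reached 1 FPKM only with ISOX, which had to differ to be chosen. The order was not computed without them, and the part of shared reads in it was not tested. Overlap of row spans showed less difference. Of 160 members whose span overlaps no other row, 18 (11.3%) were at least 2-fold higher, beside 10.6% of all members. Their median log2 ratio was 0.22, beside 0.19 over all members. The members did not otherwise divide by position: 129 with a start within 1000 bases of a coding start on the opposite strand had a median of 0.23 and 11 of 127 at least 2-fold higher, and the 213 without had 0.19 and 25 of 211. In 115 such divergent pairs with both genes expressed, Spearman's rho of the log2 ratios was 0.20.

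**Figure D5:**
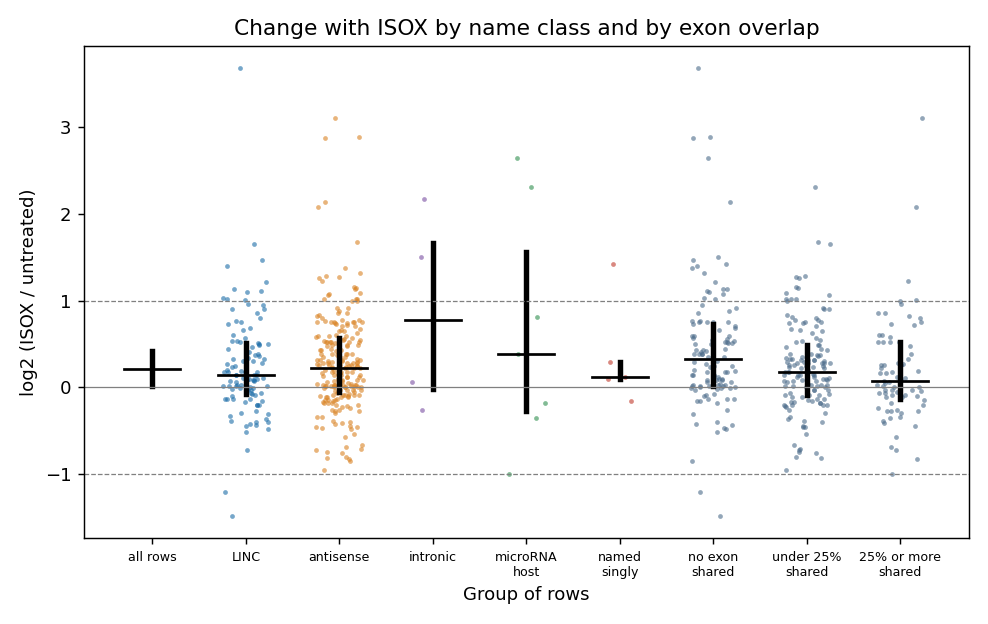
Log2 ratio (ISOX over untreated) of each member by name class, and of the members matched to GENCODE 29 by the share of exonic bases that other genes also cover; thick bars give the quartiles, horizontal bars the median, and dashed lines 2-fold. The medians of the 3 overlap groups lie at 0.32, 0.18 and 0.08, and that of all rows, drawn as quartiles alone, at 0.21.

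Promoter windows of 300 bases could be taken from RefSeq for 258 members. They held a median of 23 CG dinucleotides, against 14 in all 35116 RefSeq promoters. The median was 17 in the 29 windows of members at least 2-fold higher and 25.5 in the 106 of members within 1.2-fold. Several of the 29, among them LCMT1-AS1 and IBA57-AS1, were members only through their higher value with ISOX. The windows were not compared without them, so this difference and the string counts below are descriptions only. RefSeq gives 1 start per gene in these windows, and a gene with several starts, such as MIR100HG, may be measured from another one. The window of CRNDE (chr16:54928837-54929136, minus strand), the singly named RNA past 2-fold, held 44 and is shown with CG dinucleotides in capitals.
CRNDE: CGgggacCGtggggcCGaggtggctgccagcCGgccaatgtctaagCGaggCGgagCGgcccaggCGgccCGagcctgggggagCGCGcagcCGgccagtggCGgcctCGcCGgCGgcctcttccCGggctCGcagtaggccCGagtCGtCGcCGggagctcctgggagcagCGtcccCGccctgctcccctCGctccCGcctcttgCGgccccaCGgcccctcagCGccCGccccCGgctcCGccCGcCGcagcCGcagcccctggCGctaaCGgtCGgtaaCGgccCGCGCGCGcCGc
On both strands, CACGTG, the E-box to which MYC and related factors bind, was present in 5 of the 29 windows (17.2%), in 11.3% of those within 1.2-fold and in 7.26% of all promoters. GGGCGG, the GC box, was present in 48.3%, 48.1% and 45.0%, and TATAAA in 3.45%, 8.49% and 11.5% in the same order. TGATGNAA was present in 1 of the 29 windows and in 3.62% of all promoters, and TGACGTCA in 0 of the 29 and in 1.85% of all promoters. None of these 5 strings contains another. These are letter matches in fixed windows and not measured binding.

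Some names had more than 1 row. THUMPD3-AS1 had rows of 16.5 and 20.5 FPKM (0.31) and of 2.69 and 1.39 FPKM (-0.95) with the same span, PAX8-AS1 had rows with log2 ratios of -0.08 and -0.22, and LINC00667 rows with 0.10 and 0.31. For THUMPD3-AS1 the direction thus depended on which row was read.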

How the data were processed

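RNA of untreated and ISOX-treated CD18/HPAF cells (12 samples each, grouped by their titles) was sequenced by the authors as 75-base paired-end reads from Illumina TruSeq RNA libraries. The submitters' processing notes name Bowtie, TopHat, Cufflinks, Cuffdiff and the build hg38, with no version, and neither the annotation nor the strand setting is stated. The authors deposited 1 pooled FPKM value per gene row and group in a Cuffdiff table, which can hide differences between samples, and its columns of log2 fold changes, test statistics, p-values, q-values and calls hold the authors' own comparison and were not used.

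Log2 ratios of the pooled FPKM (ISOX over untreated) were computed without a pseudocount, rows at 0 gave none, and a ratio of at least 2 or at most 0.5 was counted as a difference. Since each group has 1 value, no test was run, and the depth and precision of each sample are unknown. Named were the 12 members with the highest FPKM, every member past 2-fold, the singly named RNAs, the microRNA hosts, the genes in the names of changed antisense members, and up to 4 genes per list with the largest change. Positions were taken from the rows, whose starts count from 0 in the table and from 1 here. Exon overlap came from GENCODE 29 and was taken over all other genes, not the named gene alone. Names, microRNAs and promoters came from RefSeq (GRCh38.p14). A microRNA was assigned to a host whose row span holds it. Transcripts of LINC00152 and MIR4435-2HG were compared with blastn 2.17.0. Python 3.11.15, pandas 2.3.3 and numpy 2.4.6 were used, and the counting rules were tested on simulated data. Alternatives were pseudocounts of 0.1 and 1 FPKM, other filters and folds, other scalings, members without an overlapping row, and 1 row per name. The members and lists were chosen with earlier results of these data known.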

Additional observations from a re-analysis of the deposited data

How the results depend on the processing

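The counts of members past 2-fold depended on the filter and the scale. Without a filter on low values, 123 of 851 members were at least 2-fold higher and 62 lower (6.82% and 3.97% of all rows), with at least 5 FPKM in either group 13 of 109 and 0 (2.78% and 0.349%), and with at least 1 FPKM in both groups 19 of 291 and 0 (2.46% and 0.412%). With 1 FPKM added, 15 were higher and 0 lower (2.17% and 0.499% of all rows). Centred on the median of all rows, 21 were higher and 8 lower (1.95% and 1.41% of all rows), after scaling to the same upper quartile 20 and 9 (1.79% and 1.58%), and after scaling to the same sum of FPKM 15 and 15 (1.37% and 2.34%). Among 160 members whose span overlaps no other row, 18 (11.3%) were higher and 2 lower, beside 10.6% higher among all members. A fold of 1.5 gave 84 higher and 15 lower (13.0% and 2.56% of all rows), and a fold of 3 gave 11 and 0 (1.00% and 0.206%).

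The medians changed sign with the scale. The median log2 ratio of members was -0.0254 when centred on the median of all rows, -0.0663 at the same upper quartile, -0.20 at the same sum of FPKM and 0.30 with at least 5 FPKM. For LINC members it was -0.0713, -0.11, -0.25 and 0.35 under the same 4 settings. For antisense members it was 0.0172 when centred, -0.0237 at the same upper quartile, -0.16 at the same sum, 0.12 without a filter and 0.35 without overlapping rows. For microRNA hosts it was 0.17 when centred, 0.13 at the same upper quartile, -0.00645 at the same sum, 0.81 with at least 5 FPKM, 0.60 without overlapping rows, 0.50 without a filter and 0.19 with 1 FPKM added. The median difference of member minus named gene was -0.0702 without a filter, -0.00152 with 1 FPKM added and 0.19 without overlapping rows. Members above the median of all rows numbered 62 with at least 5 FPKM, 80 without overlapping rows and 387 without a filter. The other 47 values kept their direction and moved by under 0.1 (log2) or at most 1.5 times. The cause was not tested beyond the construction of each setting, and no paired analysis was possible because each group has 1 pooled value.

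Pooled values limit every ratio: no spread between samples, no depth and no strand setting is known, and ratios of members near 1 FPKM rest on few reads at an unknown depth.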
